A study of Macaca fascicularis with 16 samples.

Results

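The comparison set blood mononuclear cells taken 30 minutes after NKTT320 against cells of the same animals taken before it. Its members were the 8 of 16 samples whose titles name these times, 4 per time and 1 of each from the cynomolgus macaques LG04, LG11, LG12 and LG15, which are of Mauritian origin. All 4 animals received NKTT320, so the pre-treatment samples are each animal's own reference, and the drug, the passage of 30 minutes and the repeated bleeding cannot be told apart. The later samples, taken at 2 hours and 1 day, entered the fit and are given beside the results. Total RNA of unfractionated, snap-frozen cells was sequenced after removal of ribosomal RNA, and reads were counted on human gene models. After a filter on low counts 11545 of 23602 gene symbols were tested. The sources used here give neither the dose nor the age of the animals, and the labels name 1 sample per animal and time.

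NKTT320 is an antibody against the receptor chain that sets invariant natural killer T (iNKT) cells apart from other T cells. Few in blood, iNKT cells see lipids held by CD1d and release cytokines soon after stimulation, and natural killer (NK) cells, B cells and myeloid cells are known to respond to them. NK cells and effector CD8 T cells hold ready-made granules of perforin, granzymes and granulysin, and the transcription factors T-bet (TBX21) and eomesodermin (EOMES) maintain that program. In whole mononuclear cells, fewer cells of a type and less RNA per cell cannot be told apart.

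Total counts of the 8 libraries ranged from 1960744 (LG12 at 30 minutes) to 8582852 (LG04 at 30 minutes), so that 3 counts stood for 0.352 CPM (LG11 before treatment) to 1.28 CPM (LG12 at 30 minutes), where CPM are TMM-normalised counts scaled to a common library size. Globin genes, the mark of red cells, took from 0.0253% to 38.2% of the counts. Genes of T cells (CD3E), B cells (MS4A1), monocytes (CD14) and NK cells (NCR1) were present, as were genes of neutrophils, red cells and platelets, which a mononuclear preparation should hold few of. The pre-treatment library of LG15 stood apart: its summed platelet markers were 10580 CPM, against 140.7 to 451.6 CPM in the other 3 animals. Deviations from the group means correlated between the 2 libraries of an animal with r of at least 0.730 in LG04, LG11 and LG12 and with r = 0.234 in LG15. Across the 11545 genes, the log2 differences of LG04, LG11 and LG12 correlated with one another (r = 0.136 to 0.271), and those of LG15 ran opposite to all 3 (r = -0.371 to -0.227). Genes are not independent replicates, and each pair of animals shares no library. The results below are given by animal, and without that pre-treatment library of LG15 where it moves them.

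Genes of cytotoxic lymphocytes had a median below 0 in every animal at 30 minutes, and no single gene passed the adjusted threshold of edgeR. The quasi-likelihood F test of edgeR called 0 of 11545 genes (0%), with a smallest adjusted p of 0.52. At an unadjusted p under 0.05, 171 genes were lower (1.48%) and 121 higher (1.05%), 292 in all where about 577 would be reached with no difference anywhere. Leaving out 1 library moved these counts to 288 lower and 230 higher without the pre-treatment library of LG15, and to 92 lower without the 30-minute library of LG04. Leaving out all libraries of an animal gave 52, 70 and 260 higher genes without LG11, LG12 and LG15, respectively. All 4 animals were lower for 510 genes (4.42%) and higher for 730 (6.32%). The 4 libraries of 30 minutes all lay below the 4 of pre-treatment for 53 genes (0.459%) and all above for 39 (0.338%). DESeq2, run as an alternative on 18814 genes, called 9 (0.0478%), all lower: AFAP1L2, CST7, GNLY, HSPH1, PCDH1, PDGFRB, PRR5L, TBX21 and TM4SF1. Their adjusted p by DESeq2 ranged from 4.7e-04 (PDGFRB) to 0.044 (HSPH1). TM4SF1 had 4 counts in the 8 libraries, all in the pre-treatment library of LG15, and gives no fold change. Values are given as levels and differences, and fold changes as log2 (30 minutes minus pre-treatment) ± the standard error (SE) of the fit.

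**Figure D1:**
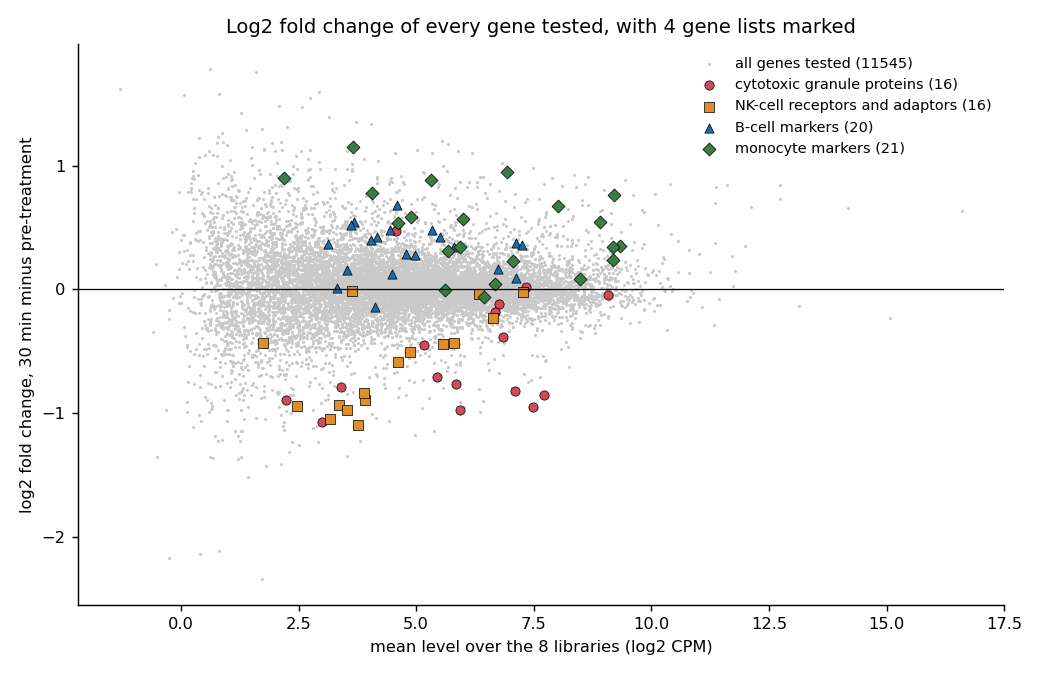
Log2 fold change of each of the 11545 genes tested (vertical axis, 30 minutes minus pre-treatment) against its mean level over the 8 libraries (horizontal axis, log2 CPM). Of the marked genes, 14 of 16 granule genes and 16 of 16 NK-cell genes lie below 0, and 19 of 20 B-cell and 19 of 21 monocyte markers lie above it.

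Cytotoxic granule genes were lower for 14 of 16 members, with a median log2 fold change of -0.73, against 0.02 over all genes tested. Lower in 4 of 4 animals were 9 of the 16 (4.42% of all genes), and 9 had an unadjusted p under 0.05 in that direction (1.48% of all genes). The median difference within an animal was -0.74 in LG04, -0.73 in LG11, -0.76 in LG12 and -0.44 in LG15. The difference was present in each animal, LG15 included, and without the pre-treatment library of LG11 the fitted median was -0.42. The summed level of the 16 genes was 2114, 2172, 1299 and 2632 CPM before treatment (in the order LG04, LG11, LG12, LG15, kept from here on) and 1774, 1587, 994.3 and 1857 CPM at 30 minutes.

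Granulysin (GNLY), a pore-forming protein that kills microbes and target cells, stood at 85.8, 73.7, 75.8 and 90.6 CPM before treatment and at 46.4, 40.2, 31.9 and 47.2 CPM at 30 minutes. The highest library of 30 minutes lay below the lowest of pre-treatment. The means were 81.5 ± 8.07 and 41.4 ± 7.11 CPM (SD, n = 4), a log2 fold change of -0.98 ± 0.20 (SE). Granzyme H (GZMH), a serine protease delivered into target cells, went from 203, 234, 184 and 322 CPM to 97.8, 122, 92.7 and 178 CPM, again without overlap (-0.95 ± 0.22). Granzyme B (GZMB), the protease that starts apoptosis in target cells, went from 239, 266, 191 and 386 CPM to 123, 155, 109 and 211 CPM (-0.85 ± 0.20). The animals kept their order in GZMB at both times, LG15 highest and LG12 lowest, and the groups overlapped only through LG15 at 30 minutes and LG12 before treatment. GZMB and GZMH are close copies, and reads may be shared between them.

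Perforin (PRF1), which opens the target cell membrane, stood at 221, 234, 89.0 and 157 CPM and then at 103, 117, 54.0 and 124 CPM (-0.82 ± 0.25). Its smallest difference was in LG15. Cystatin F (CST7), an inhibitor of the proteases that mature the granzymes, went from 55.3, 67.5, 36.5 and 57.7 CPM to 33.0, 40.0, 19.1 and 41.2 CPM (-0.71 ± 0.17). On the per-length scale of the authors' FPKM, GZMB (356 ± 115) and GZMH (345 ± 99.0) were the most abundant of these 5 genes before treatment (mean ± SD, n = 4), ahead of GNLY (152 ± 21.1), PRF1 (77.3 ± 26.1) and CST7 (69.4 ± 16.5). Their FPKM at 30 minutes were 187 ± 78.7, 172 ± 80.6, 70.3 ± 18, 41.2 ± 16.4 and 40.4 ± 15.5 in the same order. The order of levels was thus kept. SERPINB9, an inhibitor that shields the cell from its own granzyme B, was named after its values were seen, as the only other member without overlap. It stood at 119, 141, 127 and 132 CPM against 89.9, 114, 103 and 92.3 CPM (-0.39 ± 0.13). Of the 16 members 3 thus lay wholly below, against 0.459% of all genes. GZMK, likewise named after its values were seen, was the 1 member of 16 higher in 4 of 4 animals, where 6.32% of all genes were. It stood at 27.1, 32.0, 8.75 and 14.4 CPM, then at 33.7, 34.2, 19.6 and 19.2 CPM. This granzyme is known from memory T cells rather than mature NK cells.

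**Figure D2:**
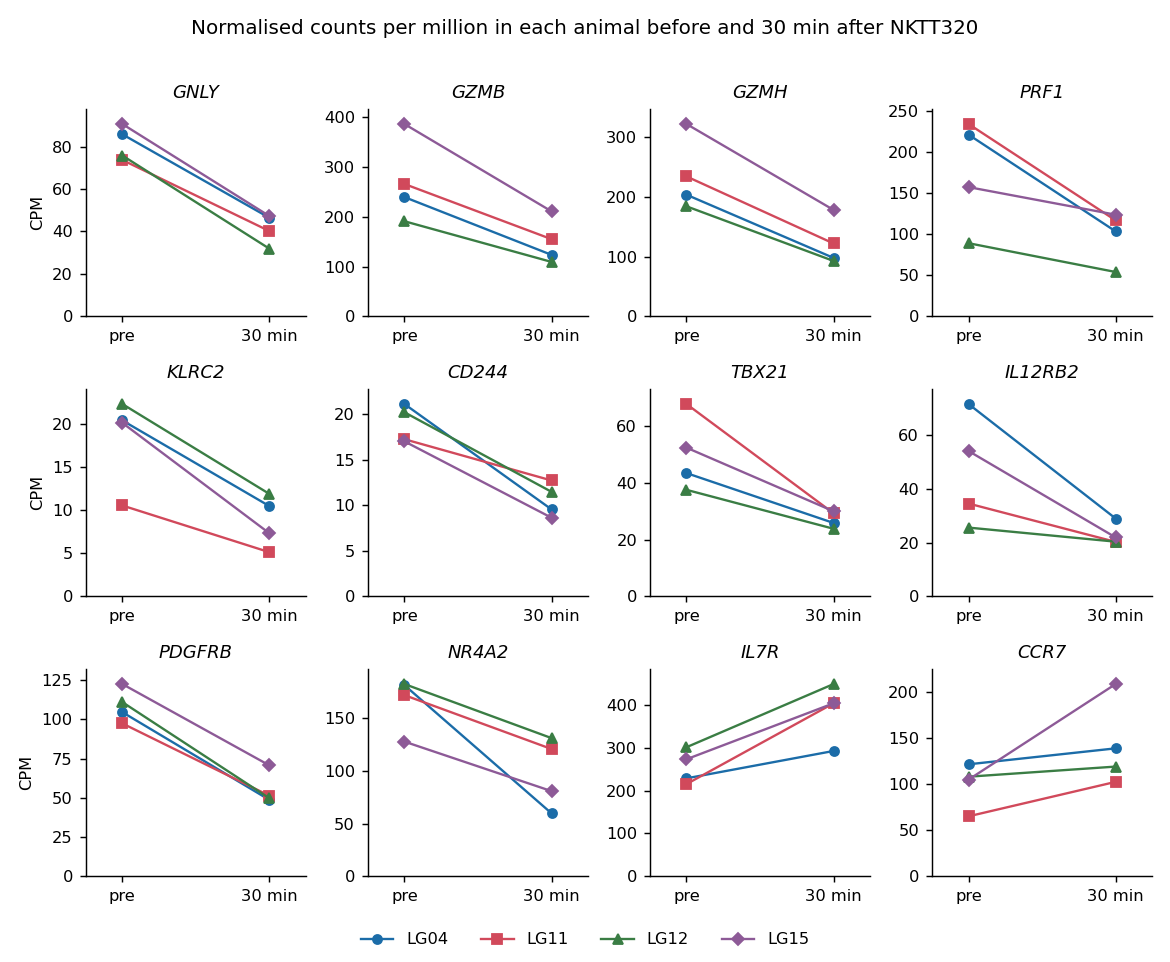
CPM of 12 genes in each animal before and 30 minutes after NKTT320; each line joins the 2 libraries of 1 animal. All lines point down for the 10 genes from GNLY to NR4A2 and up for IL7R and CCR7.

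Receptors and adaptors of NK cells were lower for the 16 members, of 18 listed, that passed the filter, with a median of -0.55. In 9 of the 16 all 4 animals were lower (4.42% of all genes), and 10 were lower with an unadjusted p under 0.05 (1.48% of all genes). Within an animal the median was -0.67, -0.32, -0.76 and -0.86, so LG15 showed the largest difference here. KLRC2, the activating NKG2C receptor that pairs with CD94, stood at 20.4, 10.6, 22.4 and 20.2 CPM and then at 10.5, 5.13, 11.9 and 7.33 CPM (-1.10 ± 0.24). Its neighbour KLRC3 went from 16.6, 8.21, 11.5 and 17.6 CPM to 8.43, 5.80, 7.23 and 6.28 CPM (-0.94 ± 0.28). These KLRC genes are near-copies whose reads may be shared, so their values are not independent.

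The groups overlapped in KLRC2 and KLRC3. Of the 16 NK-cell members, 3 did not overlap between the times, where 0.459% of all genes lay wholly below. CD244, a receptor of the SLAM family on NK cells and cytotoxic T cells, went from 21.1, 17.3, 20.2 and 17.0 CPM to 9.55, 12.7, 11.5 and 8.64 CPM (-0.84 ± 0.18). SH2D1B encodes EAT-2, the adaptor that carries signals of such receptors, and went from 13.2, 10.4, 17.1 and 20.5 CPM to 8.24, 6.92, 10.2 and 5.63 CPM (-0.97 ± 0.26). NCR1, the activating receptor NKp46, went from 18.1, 14.6, 23.7 and 22.9 CPM to 7.68, 12.5, 8.93 and 12.3 CPM (-0.89 ± 0.26). In each of the 3 the highest library of 30 minutes lay below the lowest of pre-treatment. NCAM1, which encodes CD56 and marks NK cells in humans more than in macaques, had no common direction: 10.7, 12.3, 12.8 and 12.6 CPM before, and 9.18, 20.3, 2.98 and 17.9 CPM after (-0.01 ± 0.45).

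Transcription factors of effector lymphocytes were lower for 9 of 11 members that passed the filter (median -0.51). Lower in 4 of 4 animals were 6 of them (4.42% of all genes), and 6 were lower with an unadjusted p under 0.05 (1.48% of all genes). TBX21, the master factor of Th1 and cytotoxic differentiation, stood at 43.4, 67.7, 37.5 and 52.4 CPM and then at 25.8, 29.2, 23.8 and 30.0 CPM. The 4 animals lay closer together after treatment, with a mean of 27.2 ± 2.90 CPM against 50.2 ± 13.1 CPM before (SD, n = 4). The log2 fold change was -0.88 ± 0.18 (SE). EOMES, its relative in NK and memory CD8 T cells, had 33.3, 26.9, 30.7 and 36.4 CPM against 24.5, 19.2, 26.8 and 19.6 CPM (-0.51 ± 0.17). Its groups only just failed to overlap, at 26.9 CPM (LG11 before) against 26.8 CPM (LG12 at 30 minutes). In the latter library 3 counts are 1.28 CPM, so counting error exceeds that gap. RUNX3, which acts with both in CD8 T cells, went from 247, 266, 138 and 187 CPM to 138, 188, 93.9 and 162 CPM (-0.53 ± 0.15). HOPX (-0.63 ± 0.19) and BHLHE40 (-0.57 ± 0.16), factors found in differentiated effector cells, were lower in 4 of 4 animals as well.

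The receptors through which interleukins act on these cells showed no common direction over their list (20 members, 9 lower, median 0.03), and 2 members were lower and 2 higher with an unadjusted p under 0.05, against 1.48% and 1.05% of all genes. IL12RB2, the signalling chain of the interleukin-12 receptor and itself a known target of T-bet, went from 71.7, 34.6, 25.7 and 54.2 CPM to 29.0, 20.3, 20.4 and 22.0 CPM (-0.95 ± 0.20). The highest animals before treatment, LG04 and LG15, had the largest differences, and all 4 lay between 20.3 and 29.0 CPM afterwards. IL2RB, the chain shared by the receptors for interleukins 2 and 15 and abundant on NK cells, went from 271, 240, 127 and 193 CPM to 158, 118, 83.3 and 136 CPM (-0.75 ± 0.22). The feedback inhibitors SOCS2 and SOCS3, which cytokine signalling induces, were higher: the former in 4 of 4 animals (0.63 ± 0.26), and the latter in 3 of 4 (0.86 ± 0.34), with 81.6, 58.7, 56.0 and 67.3 CPM before and 107, 135, 48.9 and 205 CPM after. LG12 was the animal without the difference in SOCS3.

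Cytokine and chemokine genes of lymphocytes were lower for 7 of the 9 members, of 19 listed, that passed the filter (median -0.54). Lower in 4 of 4 animals were 5 of them (4.42% of all genes). The median was -0.29 without the pre-treatment library of LG11 and -0.83 without that of LG04. Interferon gamma (IFNG), the main cytokine of activated iNKT and NK cells, was counted at 16, 69, 27 and 53 reads before treatment and at 11, 16, 1 and 22 reads at 30 minutes. In CPM these were 2.68, 8.10, 5.25 and 9.80, then 2.06, 3.57, 0.425 and 2.88 (-1.41 ± 0.40). The value of LG12 at 30 minutes rests on 1 read, and without that library the log2 fold change was -1.16. The chemokine CCL4 went from 12.1, 9.27, 5.64 and 9.99 CPM to 5.24, 7.14, 2.13 and 4.19 CPM (-0.98 ± 0.25). Fas ligand (FASLG), a death ligand of cytotoxic cells, went from 11.2, 17.8, 8.75 and 11.7 CPM to 6.18, 13.4, 3.40 and 5.37 CPM (-0.91 ± 0.24). CCL5, a chemokine stored by effector T cells and NK cells, had a log2 fold change of -0.67 ± 0.22, and TGFB1 one of -0.54 ± 0.25, each lower in 4 of 4 animals. CCL4 has near-identical copies, so its counts are uncertain. The genes TNF, LTA and LTB are listed at 0 in all 16 libraries, as is the NK receptor NCR3, so they were not analysed here.

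Other leading lower genes are outside the lists described above, and which blood cells express them was not tested. PDGFRB, the receptor tyrosine kinase for platelet-derived growth factor, best known from pericytes, had the smallest p of all genes tested by edgeR (unadjusted p = 5.1e-05). It stood at 105, 97.4, 111 and 122 CPM and then at 48.7, 51.3, 49.7 and 70.7 CPM (-0.99 ± 0.17). AFAP1L2, an adaptor of Src-family kinase signalling, went from 55.5, 60.6, 70.0 and 43.5 CPM to 22.5, 29.5, 30.6 and 21.6 CPM (-1.14 ± 0.20). PCDH1, a protocadherin of cell adhesion, went from 92.8, 72.2, 65.3 and 86.6 CPM to 41.8, 34.6, 33.2 and 62.0 CPM (-0.91 ± 0.17). In none of these 3 genes did the groups overlap, where 0.459% of all genes lay wholly below. The 3 were picked by their p on this same contrast, which favours such a separation. PRR5L, which binds the mTORC2 kinase complex, differed more between animals than between times: 45.2, 95.3, 25.7 and 52.9 CPM, then 30.9, 66.3, 14.9 and 38.3 CPM (-0.57 ± 0.11). Its difference within each animal was even, from -0.77 to -0.46. CLNK, an adaptor of the SLP-76 family in NK cells and mast cells, had few reads, 27, 48, 48 and 42 before and 6, 11, 15 and 18 after (-1.31 ± 0.29).

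**Figure D3:**
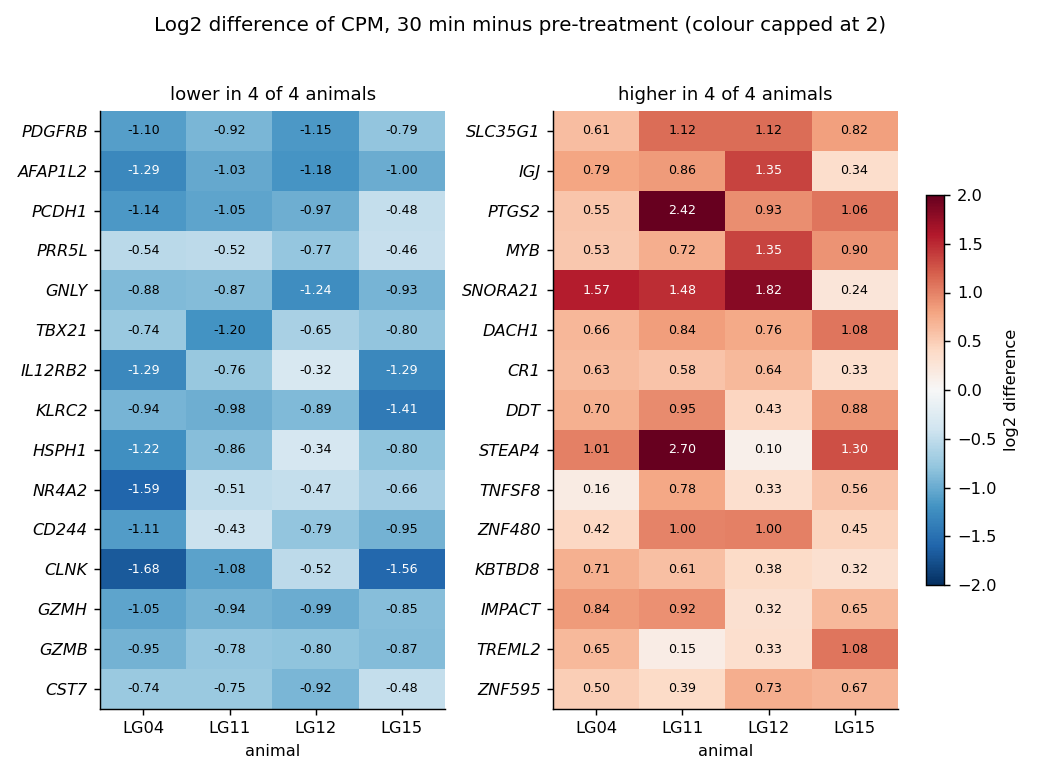
Log2 difference of CPM (30 minutes minus pre-treatment) in each animal for the 15 lower and the 15 higher genes with the smallest p among those with the same sign in 4 of 4 animals and a mean of at least 5 CPM. The lower genes have a median between -1.10 (LG04) and -0.80 (LG12) in each animal; the higher genes are less even, from 0.10 for STEAP4 in LG12 to 2.70 in LG11.

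Those 15 lower genes and the 15 higher ones were chosen on this contrast, so their sizes are a description. Of the 15 lower, 8 belong to the lists of granule, NK-cell, transcription-factor and interleukin-receptor genes above. These lists hold 16, 16, 11 and 20 of the 11545 genes tested. They were chosen with earlier results of these data known, so the overlap is no independent result. The 15 lower genes had a median difference of -1.10 in LG04, -0.87 in LG11, -0.80 in LG12 and -0.85 in LG15. All 4 animals contributed, and the rule required the same direction in each. Their adjusted p by edgeR ranged from 0.52 to 0.82, and that of the 15 higher from 0.58 to 1.

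Markers of T cells as a whole were divided, with 11 of 22 lower and 11 higher (median -0.03). CD3E, a chain of the receptor complex of all T cells, stood at 118, 109, 167 and 132 CPM and then at 83.0, 98.0, 202 and 133 CPM (-0.09 ± 0.19). CD8A was lower in 4 of 4 animals, from 109, 141, 81.6 and 151 CPM to 65.4, 92.6, 62.9 and 102 CPM (-0.56 ± 0.18). IL7R, the survival receptor of naive and memory T cells that most effector cells lack, was higher in 4 of 4, from 228, 215, 301 and 273 CPM to 292, 403, 448 and 403 CPM (0.59 ± 0.23). LEF1, a factor of naive T cells, was also higher in 4 of 4 (0.42 ± 0.21). CD8A thus lay on 1 side of 0, and IL7R and LEF1 on the other, with overlapping groups for all 3.

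Receptors that steer lymphocytes between blood and tissue were also divided. CCR7, the chemokine receptor that guides naive and memory T cells into lymph nodes, went from 121, 65.1, 108 and 105 CPM to 139, 102, 119 and 208 CPM (0.51 ± 0.21). S1PR5, the egress receptor of NK and effector T cells, went the other way, from 8.21, 20.2, 7.58 and 22.8 CPM to 7.49, 7.14, 5.10 and 9.55 CPM (-0.98 ± 0.30). CX3CR1, the fractalkine receptor of effector cells and also of nonclassical monocytes, was lower in 3 of 4 animals (-0.19 ± 0.30), with 122, 512, 103 and 177 CPM before and 197, 391, 55.3 and 154 CPM after. Over the whole list of 18 members the median was -0.07, with 10 lower.

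**Figure D4:**
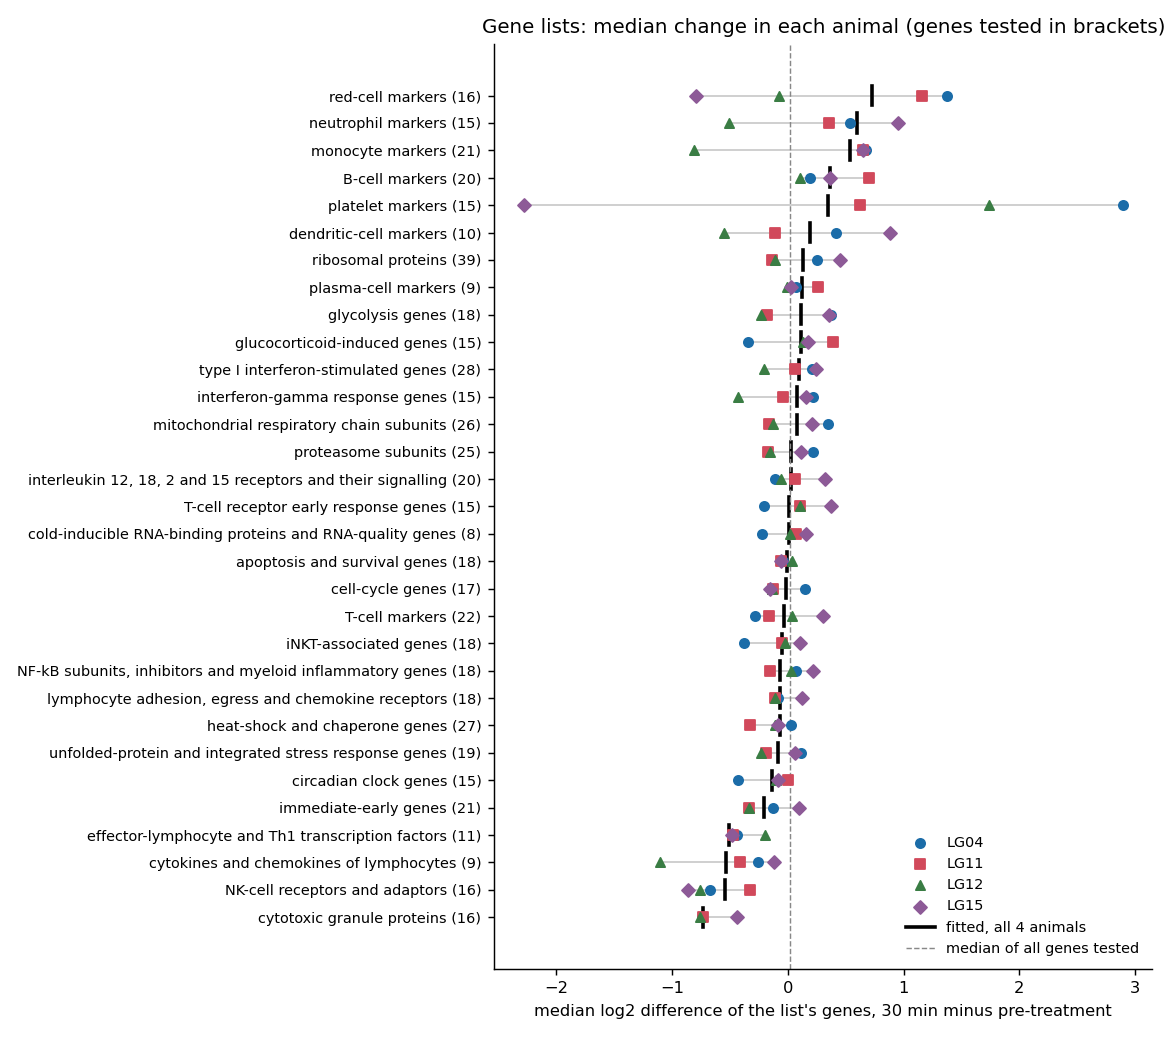
Median log2 difference (horizontal axis, 30 minutes minus pre-treatment) of the genes of each of 31 lists in each animal (symbols), with the median of the fitted log2 fold changes (black bar) and that of all genes tested (dashed line, 0.02). The 4 symbols of the cytotoxic list lie between -0.76 and -0.44, and those of the platelet list between -2.28 and 2.89.

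Genes tied to iNKT cells and to stimulation of the T-cell receptor showed no common direction at this time. Of 18 iNKT-associated genes, most of them shared with other T and NK cells, 11 were lower (median -0.05). KLRB1 (CD161), the only one with an unadjusted p under 0.05, went from 18.9, 36.0, 17.9 and 45.0 CPM to 12.9, 26.8, 13.2 and 24.6 CPM (-0.58 ± 0.24), and NK cells carry it too. ZBTB16, the factor PLZF that directs iNKT development, stood at 31.3, 5.05, 1.94 and 5.55 CPM and then at 14.0, 13.6, 2.55 and 11.6 CPM (0.33 ± 0.55). It was higher in 3 animals and lower in LG04, the highest before treatment. CD1D, whose product presents the lipid antigens, had a log2 fold change of 0.11 ± 0.46.

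Early response genes of the T-cell receptor were lower for 7 of 15 members (median 0.01). NR4A2, a nuclear receptor induced by that signal, was lower in every animal: 182, 172, 183 and 128 CPM before, and 59.9, 121, 131 and 81.0 CPM after (-0.80 ± 0.17). Its relative NR4A1, the usual reporter of receptor signalling, had a log2 fold change of -0.17 ± 0.27. The factors EGR1 (0.14 ± 0.37) and EGR2 (0.01 ± 0.40) and the activation marker CD69 (-0.04 ± 0.37) had differences smaller than their errors. MYC, a transcription factor of cell growth, was higher in 4 of 4, from 41.7, 18.9, 33.6 and 32.2 CPM to 53.9, 42.4, 37.0 and 62.0 CPM (0.69 ± 0.24). Immediate-early genes, which any stimulus or handling of cells can induce within minutes, were lower for 17 of 21 members (median -0.21), none with an unadjusted p under 0.05. FOS stood at 1033, 1007, 665 and 964 CPM and then at 723, 1009, 504 and 912 CPM (-0.27 ± 0.23), and JUN had a log2 fold change of -0.69 ± 0.37. Heat-shock and chaperone genes, which respond to misfolded protein and to handling, were lower for 20 of 27 (median -0.07). Of these, 2 had an unadjusted p under 0.05 (1.48% of all genes). HSPH1, a chaperone of the HSP110 family, went from 113, 117, 89.2 and 89.0 CPM to 48.1, 64.5, 70.6 and 50.8 CPM (-0.81 ± 0.17), and STIP1, which links HSP70 to HSP90, had -0.46 ± 0.18.

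Among the higher genes, markers of B cells lay above 0 for 19 of 20 members (median 0.36), 5 of them in 4 of 4 animals (6.32% of all genes) and 1 with an unadjusted p under 0.05 (1.05% of all genes). The median within an animal was 0.19, 0.70, 0.11 and 0.36. BLNK, the adaptor of the B-cell receptor, went from 11.1, 4.22, 18.9 and 7.95 CPM to 16.7, 8.71, 20.8 and 9.68 CPM (0.52 ± 0.24). MS4A1 (CD20) went from 99.0, 45.4, 272 and 81.8 CPM to 139, 72.6, 321 and 91.2 CPM (0.38 ± 0.26), and CR2 (CD21) had 0.48 ± 0.22. The 4 animals had the same direction in these genes, but the groups overlapped, and LG12 held the highest and LG11 the lowest MS4A1 at both times. The list's median was 0.21 without LG11 and 0.23 without the 30-minute library of LG04. IGJ, the chain that joins secreted IgA and IgM in plasma cells, went from 68.2, 29.9, 40.6 and 53.8 CPM to 118, 54.5, 104 and 68.4 CPM (0.83 ± 0.23), while its list was divided (5 of 9 higher).

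PTGS2 (cyclooxygenase 2), the inducible enzyme of prostaglandin synthesis, was the inflammatory gene with the smallest p: 14.4, 9.04, 1.36 and 10.4 CPM, then 21.4, 50, 2.98 and 22.1 CPM (1.34 ± 0.37). LG11 held most of the difference, and without LG11 the log2 fold change was 0.82. BIRC3, an NF-kB target that blocks apoptosis, was higher in 4 of 4 animals (0.43 ± 0.19), and NFKBIE, an inhibitor of NF-kB, lower in 4 of 4 (-0.69 ± 0.26). IL8, the neutrophil-attracting chemokine also named CXCL8, was higher in 4 of 4 animals with wide overlap, from 165, 24.4, 3.11 and 70.9 CPM to 178, 79.2, 13.2 and 91.7 CPM (0.83 ± 0.46). The 18 members of that list had a median of -0.06. STEAP4, a metalloreductase of myeloid cells and fat, went from 5.36, 2.46, 1.17 and 3.70 CPM to 11.2, 18.3, 1.28 and 9.68 CPM (1.55 ± 0.49). Without LG11 it was 0.99.

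Other genes among the 15 higher have no role in common. SLC35G1, a membrane protein of the solute carrier family, had the smallest p among them by edgeR (unadjusted p = 8.1e-04), with 4.02, 3.17, 7 and 6.47 CPM before and 6.37, 7.37, 15.7 and 11.8 CPM after (0.97 ± 0.22). MYB, a factor of progenitor and cycling lymphoid cells, went from 14.2, 4.58, 15.9 and 13.7 CPM to 20.8, 7.81, 41.2 and 25.9 CPM (0.91 ± 0.26). IMPACT, an inhibitor of the stress kinase GCN2, and DDT, a relative of the cytokine MIF, did not overlap between the times, where 0.338% of all genes lay wholly above. IMPACT stood at 10.6, 12.3, 15.5 and 12.4 CPM and then at 19.3, 23.7, 19.6 and 19.6 CPM (0.72 ± 0.24). DDT has a close copy and few reads, 12 to 47 per library, at 2.46 to 3.69 CPM before and 5.10 to 6.15 CPM after (0.84 ± 0.26). TNFSF8, the CD30 ligand (0.46 ± 0.15), CR1, a complement receptor (0.54 ± 0.16), and TREML2, a receptor of the TREM family (0.56 ± 0.18), were higher in 4 of 4 animals. So were DACH1, KBTBD8, ZNF480 and ZNF595 (0.51 to 0.86), and the small nucleolar RNA SNORA21 (1.39 ± 0.41), whose reads may belong to its host transcript.

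Markers of myeloid cells, red cells and platelets differed by animal, and their fitted medians depended on single libraries and on the fit. Monocyte markers were higher for 19 of 21 members (median 0.54), but within an animal the median was 0.68, 0.65, -0.81 and 0.65, and none had an unadjusted p under 0.05. The fitted median was 0.15 without the 30-minute library of LG04. In FPKM, which was not fitted, the median was 0.14, where the like difference in mean log2 CPM was 0.22. Over all genes the median in FPKM was -0.12. Over all alternatives the median of the monocyte markers ranged from 0.14 to 0.78. Their summed level was 5091, 4714, 1235 and 3149 CPM before and 7746, 6828, 821.7 and 4810 CPM after. LG12, with the fewest monocyte reads, was the exception, and CD163, the haemoglobin scavenger receptor, shows it: 52.8, 92.4, 32.1 and 83.4 CPM, then 140, 411, 5.53 and 161 CPM (0.95 ± 0.58). CD14 was higher in the same 3 animals (0.78 ± 0.59). CD86, a costimulatory molecule of monocytes and B cells, was the 1 member of 21 without overlap, where 0.338% of all genes lay wholly above. It stood at 16.1, 22.2, 19.6 and 22.8 CPM and then at 29.6, 31.5, 23.4 and 31.8 CPM (0.54 ± 0.32). Neutrophil markers were higher for 13 of 15 (median 0.59), again with LG12 below 0 (0.54, 0.35, -0.51 and 0.95 within an animal), and with summed levels of 5052, 459.6, 112.5 and 1181 CPM and then 7881, 505.6, 115.6 and 2850 CPM. Their fitted median was -0.02 without the 30-minute library of LG04, 1.27 without its pre-treatment library and 0.27 without the pre-treatment library of LG15. Unfitted, it was 0.28 in FPKM and 0.42 in mean log2 CPM. LTF (lactoferrin), a granule protein of maturing neutrophils, went from 2931, 164, 30.1 and 723 CPM to 4794, 209, 56.1 and 1863 CPM (0.85 ± 0.71).

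Red-cell markers were higher for 16 of 16 members in the fit (median 0.73), though lower in LG12 and LG15 by their medians within an animal (1.37, 1.16, -0.08 and -0.79). Over the alternatives the fitted median ranged from 0.03, without the 30-minute library of LG11, to 1.23, on the 8 libraries without the animal term, and it was 0.10 with the globin share as a covariate. Globin genes took 20.3%, 4.68%, 0.0333% and 6.10% of the counts before and 38.2%, 10.4%, 0.0253% and 3.36% after. Platelet markers were higher in LG04, LG11 and LG12 and lower in LG15 (medians 2.89, 0.62, 1.73 and -2.28). Their fitted median of 0.35 ranged from -0.67, on the 8 libraries without the animal term, to 1.83 without LG15, so it has no stable direction. PPBP, the most abundant platelet chemokine, stood at 167, 66.2, 68.8 and 5515 CPM and then at 1161, 120, 404 and 1106 CPM, with a log2 fold change of 0.77 ± 0.84. It was 1.73 without the pre-treatment library of LG15 and -0.12 without the 30-minute library of LG12. These markers moved beside the lymphocyte genes in the same libraries, and their part in the other results was not tested. The granule and NK-cell medians were -0.75 and -0.60 without the pre-treatment library of LG15, and -0.74 and -0.56 with the globin share as a covariate. Without each animal in turn these medians ranged from -0.82 to -0.53 and from -0.72 to -0.58.

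Lists of interferon response, glucocorticoid response and general cell functions had medians between -0.14 and 0.13, against 0.02 over all genes. Genes induced by type I interferon were higher for 20 of 28 members (median 0.10), with IFI44 higher in 4 of 4 animals (0.43 ± 0.18). Interferon-gamma response genes had 0.08 (9 of 15 higher), and IRF1, a transcription factor that interferon gamma induces, was lower in 4 of 4 (-0.29 ± 0.11). FKBP5, the classic glucocorticoid-induced gene, stood at 322, 152, 234 and 232 CPM and then at 257, 742, 409 and 346 CPM (0.83 ± 0.37), lower in LG04 and higher in the other animals. Its list had a median of 0.11. Without LG11 the value of FKBP5 was 0.29. Ribosomal proteins (36 of 39 higher, median 0.13) and respiratory chain subunits (23 of 26 higher, median 0.08) were each higher in LG04 and LG15 and lower in LG11 and LG12 by their medians. Circadian clock genes had a median of -0.14 (12 of 15 lower), glycolysis genes one of 0.11 and cell-cycle genes one of -0.01.

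The same genes can be followed at the later times, as differences of mean log2 CPM over the 4 animals, not fitted fold changes. All these differences share the pre-treatment libraries, which favours the same sign at each time. Because the 15 lower and the 15 higher genes were chosen on the 30-minute contrast, that choice alone would make later differences smaller. Whether any gene returned to its start was not tested. The 15 lower genes had a median difference from pre-treatment of -0.91 at 30 minutes, -0.31 at 2 hours and -0.24 at 1 day, with 15 of 15 below at 2 hours and 12 of 15 at 1 day. GZMB had mean levels of 270, 150, 246 and 218 CPM from pre-treatment to 1 day, GNLY 81.5, 41.4, 67.3 and 66.2 CPM, and KLRC2 18.4, 8.71, 15.7 and 17.7 CPM. These lay nearest to their start at 2 hours or 1 day, while TBX21 was still low at 2 hours (50.2, 27.2, 29.0 and 45.3 CPM). HSPH1 and NR4A2 were lowest at a later time: HSPH1 had 102, 58.5, 47.2 and 137 CPM, and NR4A2 166, 98.3, 84.8 and 35.2 CPM. The NK-cell list had a median difference of -0.56 at 30 minutes, -0.10 at 2 hours and -0.14 at 1 day. The B-cell list had 0.37, -0.38 and 0.01, and the T-cell list -0.04, -0.30 and -0.16.

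The 15 higher genes had medians of 0.74, 0.34 and 0.34 at the same times, with 14 and 13 of 15 above at the later ones. STEAP4 and PTGS2 were higher still at 2 hours, with means of 3.17, 10.1, 32.5 and 14.0 CPM and of 8.79, 24.1, 38.4 and 11.5 CPM. Monocyte markers had median differences of 0.22, 0.90 and 0.05 in mean log2 CPM, with 17 of 21 above at 30 minutes and 21 of 21 at 2 hours. The fitted median at 30 minutes was 0.54, with 19 of 21 above 0, so the 2 measures differ for this list, whose value was of the opposite sign in LG12.

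**Figure D5:**
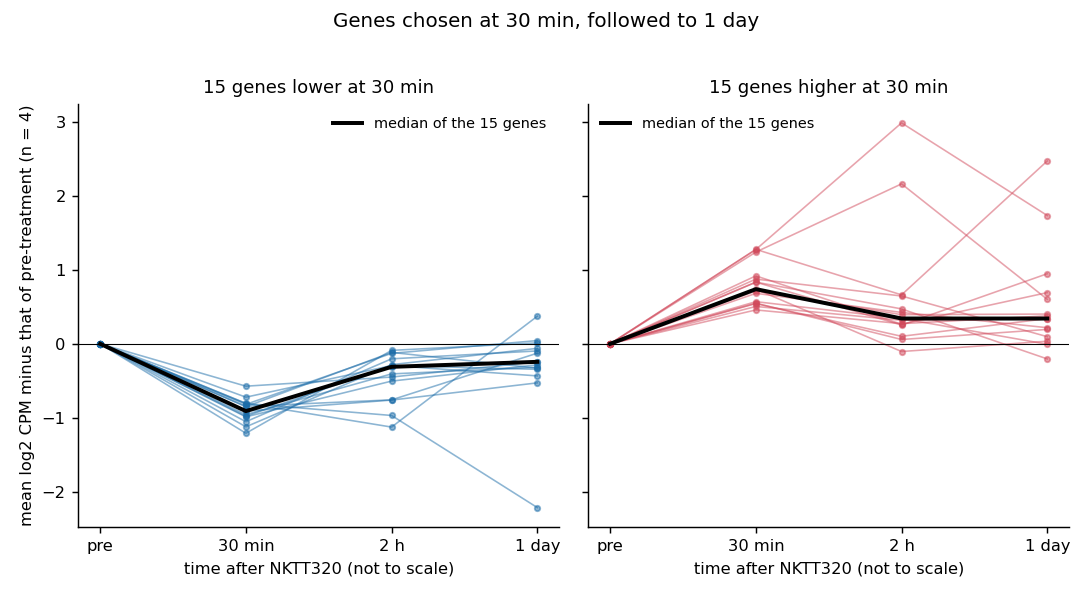
Mean log2 CPM minus that of pre-treatment (vertical axis, n = 4 animals) for the 15 lower (left) and 15 higher genes (right) chosen at 30 minutes, at each time; thin lines are genes and black lines their medians. The lower genes have medians of -0.91, -0.31 and -0.24, with NR4A2 going on to -2.22 at 1 day, and the higher genes 0.74, 0.34 and 0.34. The choice of genes at 30 minutes would alone make the later differences smaller.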

How the data were processed

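Blood mononuclear cells of 4 macaques were sequenced at 4 times, and the 8 libraries of pre-treatment and 30 minutes were compared. Per the submitters' processing notes, FastQC, Trimmomatic, STAR, HTSeq, DESeq and edgeR were used with the human build GRCh37/hg19, without versions or a strand setting. Cells came from EDTA blood by density gradient and were frozen, per the labels' protocols, and reads were single, of 75 cycles. The raw counts per gene, as deposited by the authors, were analysed, and the deposited FPKM served for levels per length and as an alternative. The 24369 entries were summed to 23602 symbols; 0 columns lacked a sample. Near-copies (GZMB and GZMH, KLRC genes, CCL4, DDT, CR1), overlapping and antisense genes may share reads.

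The main test was edgeR's quasi-likelihood test (version 4.0.16, R 4.3.3) with TMM scaling and filterByExpr, fitted to time plus animal over 16 libraries, which left 9 residual degrees of freedom, and Benjamini-Hochberg adjustment over 11545 genes at 0.05. CPM are TMM-scaled, and per-animal differences use log2 CPM with a prior count of 2. The animal term rests on the labels, which name the animal of each sample, and deviations of the 2 libraries of an animal correlated with r of at least 0.234. An exact sign-flip test over 4 pairs cannot give a p below 0.125, so none is given for single values. P-values of the main test set the difference between the 2 times against the spread left among all 16 libraries once time and animal are fitted. Alternatives included limma 3.58.1 (voom), DESeq2 1.42.0, other scaling and filters, and samples left out.

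Named genes were the 15 lower and 15 higher genes with the smallest p among those with 1 direction in 4 of 4 animals and a mean of at least 5 CPM at either time, genes called by edgeR or DESeq2, up to 5 members per list by p, and a panel of marker genes. The comparison, the panel and the 31 lists were chosen with earlier results of these data known. Counting error alone is covered by the floor of 3 counts. No sequences or coordinates are given. Some genes that the rule would also name are not reported here.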

Additional observations from a re-analysis of the deposited data

Results flagged for a closer look

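Each group of 4 libraries, and the 4 within-animal medians of each list, were checked for a value far from the other 3 by Dixon's ratio of gap to range. This marked 13 of 193 checks, and chance marks about 1 in 20. No cause was tested for any of them.

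LG15 had 70.67 CPM of PDGFRB at 30 minutes against 48.69 to 51.34 CPM in the other animals, and 5515 CPM of PPBP before treatment against 66.19 to 166.6 CPM. LG04 had 31.34 CPM of ZBTB16 before treatment against 1.944 to 5.55 CPM. At 30 minutes LG11 was high for NFKBIE (16.07 against 12.55 to 13.09 CPM) and IMPACT (23.66 against 19.29 to 19.63 CPM) and low for TREML2 (19.64 against 43.36 to 47.76 CPM). LG12 was high for KBTBD8 at 30 minutes (92.67 against 49.07 to 52.61 CPM).

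Among list medians of the log2 difference, LG15 lay above the others for cytotoxic granule genes (-0.4418 against -0.7564 to -0.7296) and for adhesion, egress and chemokine receptors (0.1269 against -0.1107 to -0.08609). LG12 lay above the others for effector transcription factors (-0.1946 against -0.4853 to -0.4365) and for apoptosis and survival genes (0.03884 against -0.05838 to -0.04418), and below them for monocyte markers (-0.8131 against 0.6485 to 0.6798). LG04 lay above the others for cell-cycle genes (0.1462 against -0.1518 to -0.1312).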

How the results depend on the processing

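No gene was called under any alternative other than DESeq2, which called 9. Without the animal term (no replicate block), 84 genes were lower and 20 higher at an unadjusted p under 0.05; the pairing by animal thus raised both counts and changed no adjusted call. On the 8 libraries alone the counts were 91 and 32 without that block, and 224 were higher with it; limma-voom gave 182 higher. Without single animals or libraries they ranged from 92 to 288 lower and from 52 to 260 higher. Leaving these out, the medians ranged from -0.82 to -0.42 (granule genes), -0.72 to -0.51 (NK cells), -0.56 to -0.38 (transcription factors), -0.83 to -0.29 (cytokines) and 0.21 to 0.51 (B cells), with no change of sign in these 5 lists. Over all alternatives, the monocyte (0.14 to 0.78), neutrophil (-0.02 to 1.27) and red-cell medians (0.03 to 1.23) moved by more than 1.5 times. So did those of platelets (-0.67 to 1.83) and dendritic cells (0.02 to 0.35), and the granule, cytokine and B-cell medians above. The neutrophil and platelet medians also changed sign. Several lists with smaller medians did so too, among them plasma-cell markers (-0.14 to 0.19), type I interferon genes (-0.05 to 0.19), interferon-gamma response genes (-0.12 to 0.15) and T-cell markers (-0.17 to 0.10).

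Signs turned only for genes with small or uneven differences, among those named. NCAM1 had 0.07 with limma-voom, 0.08 without the block, 0.056 on the 8 libraries without it, 0.008 without the 1 day library of LG04, and -0.32 to 0.32 without single samples. EGR2 had -0.01 with RLE size factors, -0.024 without globin genes, without the filter and with DESeq2, -0.005 on the 8 libraries without the block, -0.12 in FPKM, and -0.25 to 0.44 without single samples. Without the block, and on the 8 libraries without it, ZBTB16 had -0.044 and -0.062, and PPBP -1.06 and -1.13. CD69 had 0.01 with the globin share as a covariate. Without single samples ZBTB16 ranged from -0.25 to 1.09, PPBP from -0.18 to 1.95, CD1D from -0.18 to 0.51, CD69 from -0.27 to 0.17, EGR1 from -0.086 to 0.62, CD3E from -0.24 to 0.049 and NR4A1 from -0.48 to 0.038. The cause was not tested.

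Leaving out single libraries, the 8 libraries without the block, and FPKM (pseudocount 0.1, no test) were chosen after seeing the data. The FPKM scale moved the median of all genes from 0.02 to -0.12, and the 15 lower genes are to be read against that shift. Of the 8 libraries compared, depth limits low genes most in that of LG12 at 30 minutes, where 3 counts are 1.28 CPM; of the later ones it is LG04 at 1 day (1.97 CPM).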

Other observations

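Dendritic-cell markers were higher for 8 of 10 members (median 0.19), but within an animal the median was 0.42, -0.11, -0.55 and 0.88 in LG04, LG11, LG12 and LG15, so LG12 was again the animal furthest below 0. The 1 member of that list lower in 4 of 4 animals was GZMB, which plasmacytoid dendritic cells share with cytotoxic lymphocytes. Plasma-cell markers had a median of 0.13 over 9 members. Genes of the unfolded-protein and integrated stress responses were lower for 15 of 19 (median -0.09), none with an unadjusted p under 0.05 by edgeR.

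Proteasome subunits had a median of 0.03 (14 of 25 higher) and apoptosis and survival genes one of -0.003 (10 of 18 lower). Cold-inducible RNA-binding proteins and RNA-quality genes, which respond to chilling and to the state of the RNA, had a median of 0.01 over 8 members, with -0.22 in LG04, 0.07 in LG11, 0.02 in LG12 and 0.15 in LG15. Their summed level was uneven, going from 37320, 35510, 46030 and 31240 CPM to 21530, 40950, 53510 and 21190 CPM in the same order. In LG15 the sum was thus lower though the median lay above 0.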
